A study of Mus musculus with 8 samples.

Results

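The genes that load peptides onto MHC class II molecules and present them were followed in mouse retina after an injection, using every probe set whose only platform gene symbol was Ciita, Cd74, H2-Aa, H2-Ab1, H2-Eb1 or H2-DMa. The rule gave 14 probe sets for 6 genes, of 34945 probe sets for 18193 genes with 1 gene symbol each, and of 45037 probe sets in all after the array's own control probe sets were left out. Retinal RNA from Mus musculus was hybridised to 8 single-colour oligonucleotide arrays, 1 sample an array. The control group, titled Ret-C, is 4 samples of freshly dissected retina recorded at a time point of 0 d. The injected group, titled Ret Exp, is 4 samples of injected retina, recorded only as a treatment with a compound. The compound, dose, route, interval, strain, genotype, sex and age are not given in the labels, no group given a sham injection is among these samples, and the suffix ENZO in all 8 titles is not explained there. The labels do not say whether the samples came from separate animals, so the p-values measure only the spread between these samples, which may be technical.

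Class II molecules are dimers of an alpha and a beta chain that show CD4+ T cells peptides made in endosomes. Ciita is the transactivator that switches their genes on. It binds no DNA itself and is held at class II promoters by the RFX complex, CREB and the trimer NF-Y, which sit on the X and Y boxes. Cd74, the invariant chain, blocks the peptide groove until endosomal proteases remove it, and H2-DM, of which H2-DMa is the alpha chain, exchanges the last fragment for peptide. In the resting retina few cells carry class II, and microglia, macrophages and dendritic cells are the cells known to do so in inflammation.

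The promoters shown are those of the member and accessory chain genes in which a pair of boxes was found. They are H2-Aa, H2-Eb1 and 2 accessory chain genes near them on chromosome 17. In RefSeq's windows of 300 bases around gene starts (GRCm38.p6, 250 bases before the start and 50 after), both strands were searched for GCAAC, a short core of the X box, followed after 15 to 30 bases by CTGATTGG, the Y box. These letters were chosen with class II promoters in view, and the 2 motifs do not overlap. Capitals mark them, 5′ to 3′ on the gene's strand. The stretches lie at chr17:34287862-34287909 (minus strand) for H2-Aa, chr17:34305771-34305817 (plus strand) for H2-Eb1, chr17:34092298-34092345 (plus strand) for H2-Oa and chr17:34325538-34325584 (plus strand) for H2-Eb2.
H2-Aa: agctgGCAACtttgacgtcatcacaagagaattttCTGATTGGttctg
H2-Eb1: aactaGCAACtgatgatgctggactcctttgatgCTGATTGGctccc
H2-Oa: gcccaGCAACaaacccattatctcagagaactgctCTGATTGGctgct
H2-Eb2: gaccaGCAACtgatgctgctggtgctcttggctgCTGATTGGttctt

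Counted from the gene's start, the Y box began at -51 in H2-Aa and at -62 in H2-Eb1, with 25 and 24 bases between the boxes. GCAAC alone was in 35.2% of the 32851 windows and CTGATTGG alone in 4.1%, while the ordered pair was in 24 windows of 22 genes, or 0.0731%. The table held promoters of 3 of the 6 members, namely H2-Aa, H2-Eb1 and H2-DMa, and of all 5 accessory chain genes. The letters of the pair were not in the windows of H2-DMa, H2-DMb1, H2-DMb2 or H2-Ob. Boxes with other letters were not searched for, so these windows may still hold them. Ciita, Cd74 and H2-Ab1 had no window there, so whether they carry the pair is not known from this search. A link between the pair and the size of the differences was not tested.

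The members that differed by the most between injected and control retina were 2 class II chains, both with the higher mean in the injected group. H2-Aa, an alpha chain, averaged 3.21 times its control level and H2-Eb1, a beta chain, 2.42 times. Cd74 and H2-Ab1 differed by less than their spread, and Ciita and H2-DMa were below the floor set for testing. No member passed the test across all probe sets: the smallest limma adjusted p (Benjamini-Hochberg) among them was 0.709, and the same test called 0 of 27022 probe sets, or 0%, with 1889 under an unadjusted p of 0.05. Without injected replicate 4 it called 29 higher and 5 lower. All values below are log2 of the quantile-normalised intensity plus 16, and a difference is the injected mean minus the control mean on that scale, which understates the change of dim probe sets. A probe set was tested if its mean over the 8 arrays reached the 40th percentile, a floor of 8.50.

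Of the 14 member probe sets, 5 reached the floor, covering H2-Aa (2 probe sets), H2-Eb1, H2-Ab1 and Cd74. In 3 of the 5, both of H2-Aa and that of H2-Eb1, limma's unadjusted p was under 0.05 with the injected group higher, against 3.66% of all tested probe sets higher and 3.33% lower at that threshold. A probe set bright only in the injected group would reach the floor through that group, so this count is a description. None of the 14 had all injected arrays above all controls, or all below, against 2.47% and 2.6% of tested probe sets. The median difference over the 6 genes, each at its brightest probe set, was 0.42, and over all tested probe sets it was -0.02. Without injected replicate 2 the members' median was 0.70, and without control replicate 2 and injected replicate 3 it was 0.76. The tested probe set nearest the floor was that of H2-Ab1, with a mean of 8.82, and the brightest untested one was that of Ciita, with a mean of 8.23. Whole retina was measured, so more class II cells and more RNA per cell cannot be told apart.

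**Figure D1:**
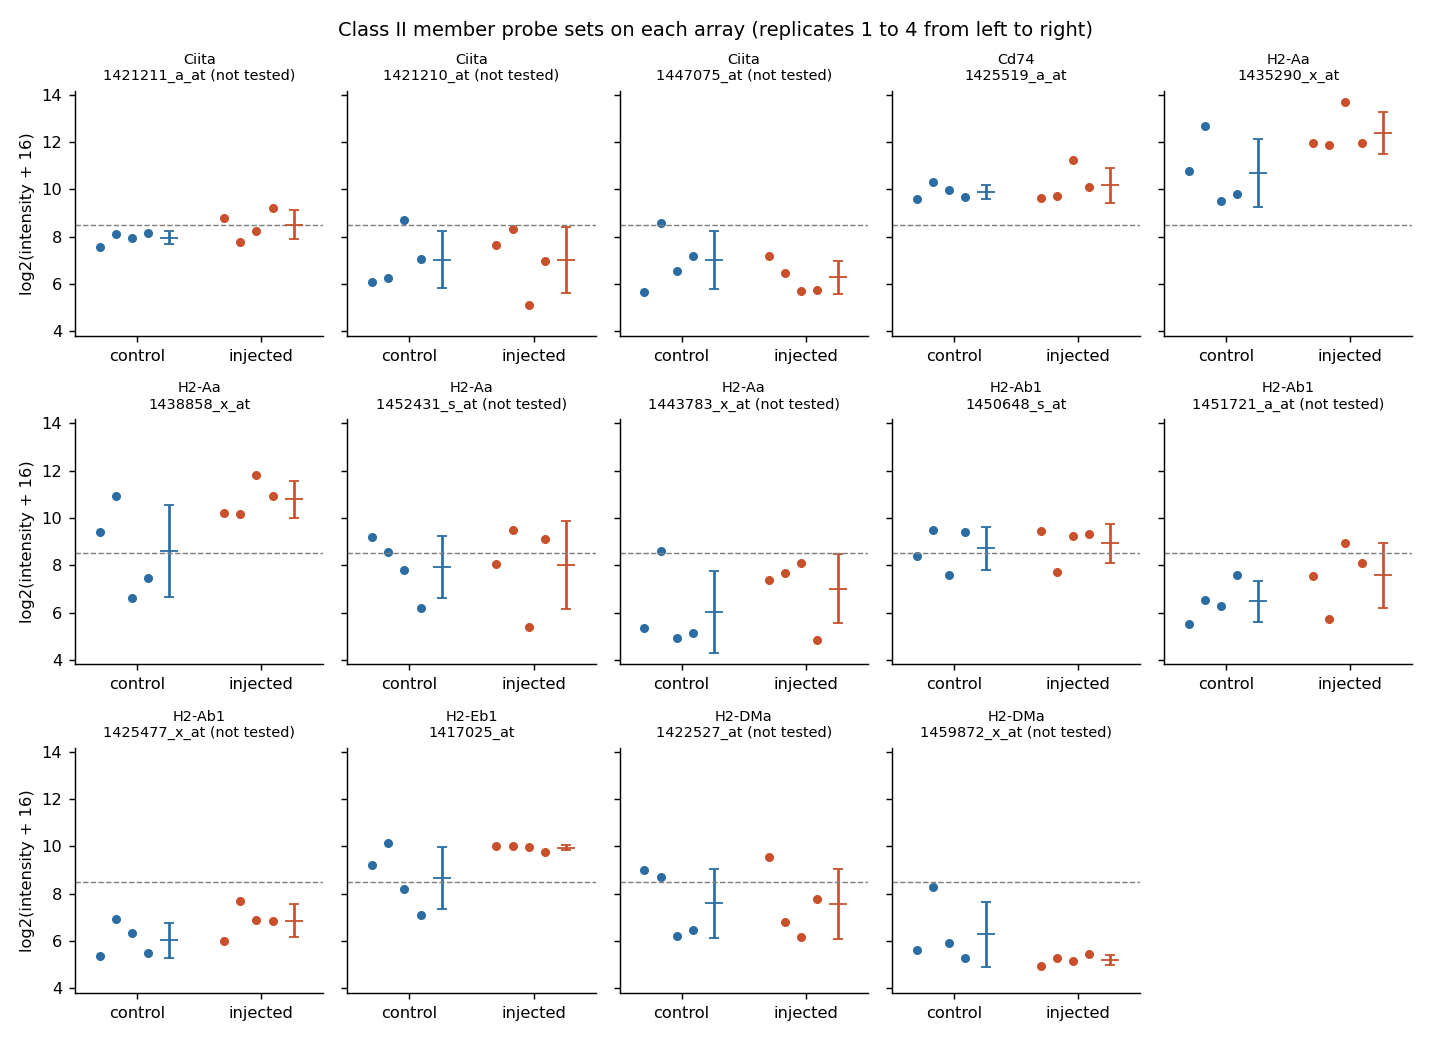
Each panel is 1 member probe set, with log2(intensity + 16) on the vertical axis, replicates 1 to 4 from left to right in each group, and the mean and SD beside them. The dashed line is the floor of 8.50; injected and control points overlap in all 14 panels, and control replicate 2 is the highest control for both tested H2-Aa probe sets and for H2-Eb1.

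Array quality differed with the group. The ratio of 3′ to 5′ signal of Gapdh, which rises as RNA or its copying is less complete, was 3.36 to 4.68 on the control arrays and 5.26 to 8.82 on the injected arrays, with no overlap. For actin it was 39.2 to 57.2 and 43.3 to 59.7. Median deposited intensity was 495 to 766, a ratio of 1.55 between arrays, and was highest on injected replicate 3. The part of any of these in the member differences was not tested.

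Ciita, the transactivator, has 3 probe sets and none was tested. The brightest, 1421211_a_at, read 7.58, 8.11, 7.96 and 8.18 on control replicates 1 to 4 and 8.79, 7.80, 8.24 and 9.20 on the injected arrays. Injected replicates 1 and 4 were the only arrays at or above the floor, and injected replicate 2 lay inside the control range. The difference was 0.55 ± 0.33 (SE, n = 4 and 4; 95% confidence interval -0.21 to 1.31). The other Ciita probe sets differed by -0.01 ± 0.80 and -0.73 ± 0.62, with 1 of 8 arrays at or above the floor in each, so the Ciita probe sets do not share a direction.

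For comparison, Nlrc5, the related transactivator of class I genes, was well above the floor. It read 9.92 to 10.49 in controls and 11.46 to 12.17 in the injected group, without overlap, a difference of 1.66 ± 0.21 (limma adjusted p = 0.109). Whether Nlrc5 and Ciita differed from each other in response was not tested.

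The proteins that hold Ciita at class II promoters showed no shared direction. All 7 genes of the list were tested, none had an unadjusted p under 0.05, and their median difference was -0.11. Of the RFX subunits, Rfx5 differed by 0.27 ± 0.22, Rfxap by -0.35 ± 0.21 and Rfxank by -0.37 ± 0.44. Of the NF-Y subunits, Nfyb differed by -0.05 ± 0.22 and Nfyc by 0.02 ± 0.18. Nfya, the subunit that contacts the Y box letters, had the widest spread of the list. It read 9.86, 9.31, 9.38 and 9.54 in controls and 6.06, 9.90, 6.83 and 9.68 in the injected group, so that injected replicates 1 and 3 were low, replicate 2 was above every control and replicate 4 lay inside the control range. Its difference was -1.40 ± 0.81 (limma adjusted p = 0.742). Creb1, which binds beside RFX, differed by -0.11 ± 0.20.

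H2-Aa encodes the alpha chain of the I-A molecule and has 4 probe sets. Its brightest, 1435290_x_at, read 10.78, 12.68, 9.52 and 9.82 on control replicates 1 to 4 and 11.97, 11.89, 13.69 and 11.96 on the injected arrays. All injected arrays were above 3 of the controls, but control replicate 2 was above every injected array except replicate 3. The means were 10.70 ± 1.43 and 12.38 ± 0.88 (SD, n = 4 each), and the difference was 1.68 ± 0.69 (SE; 95% confidence interval 0.13 to 3.23; limma adjusted p = 0.712). Without control replicate 2 it was 2.33.

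The second tested H2-Aa probe set, 1438858_x_at, followed the first over the 8 arrays, with a Pearson r of 0.96. It read 9.42, 10.91, 6.62 and 7.45 in controls and 10.23, 10.17, 11.82 and 10.92 in the injected group, a difference of 2.18 ± 0.85 (limma adjusted p = 0.709). Control replicate 2 again lay among the injected arrays, and control replicates 3 and 4 were below the floor. The remaining 2 probe sets were not tested. Probe set 1443783_x_at, with r = 0.79 to the brightest, differed by 1.0 ± 0.98. Probe set 1452431_s_at did not follow it (r = -0.09) and differed by 0.09 ± 0.97. The 4 therefore disagree in size, and 3 of them carry the x_at suffix, which this array type gives to probe sets that can share sequence with other genes.

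H2-Eb1 encodes the beta chain of the I-E molecule. Its single probe set, 1417025_at, read 9.23, 10.15, 8.19 and 7.11 on control replicates 1 to 4 and 10.02, 10.02, 9.97 and 9.77 on the injected arrays. The injected arrays lay close together, with an SD of 0.12 against 1.31 in controls, and control replicate 2 was above all of them. The means were 8.67 and 9.94 and the difference was 1.27 ± 0.55 (95% confidence interval 0.04 to 2.51; limma adjusted p = 0.712). This value depended on the dimmest control: without control replicate 4 it was 0.75, and without control replicate 2 it was 1.77. Over the 8 arrays H2-Eb1 had r = 0.85 with H2-Aa.

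H2-Ea, which encodes the alpha chain that pairs with H2-Eb1, is no member and was added after the values were seen. Its 3 probe sets were below the floor and differed by 0.03, 0.54 and 0.52.

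H2-Ab1, the beta chain that pairs with H2-Aa, did not differ beyond its spread. Its tested probe set, 1450648_s_at, read 8.38, 9.49, 7.60 and 9.41 in controls and 9.46, 7.70, 9.25 and 9.32 in the injected group. Injected replicate 2 was near the lowest control, and no injected array exceeded the highest. The difference was 0.21 ± 0.51 (95% confidence interval -0.94 to 1.37; limma adjusted p = 0.912), and without control replicate 3 it was -0.16. Its untested probe sets differed by 1.10 ± 0.70 and 0.83 ± 0.47. The interval does not exclude a difference as large as that of H2-Eb1, and whether H2-Aa and H2-Ab1 differed from each other in response was not tested.

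Cd74 was measured by 1 probe set that was above the floor on all 8 arrays. It read 9.62, 10.30, 9.96 and 9.69 in controls and 9.66, 9.71, 11.24 and 10.08 in the injected group. Injected replicate 3 was the only injected array above the highest control. The difference was 0.28 ± 0.35 (95% confidence interval -0.51 to 1.08; limma adjusted p = 0.827), and without injected replicate 3 it was -0.07. H2-DMa was not tested. Its brighter probe set, 1422527_at, read 9.01, 8.70, 6.22 and 6.45 in controls and 9.56, 6.78, 6.17 and 7.78 in the injected group. The arrays of both groups spanned the floor, and the difference was -0.02 ± 0.90, of the other sign (0.03) after median centring and (0.22) on the deposited scaling. The dimmer H2-DMa probe set, below the floor on all 8 arrays, differed by -1.06 ± 0.61.

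**Figure D2:**
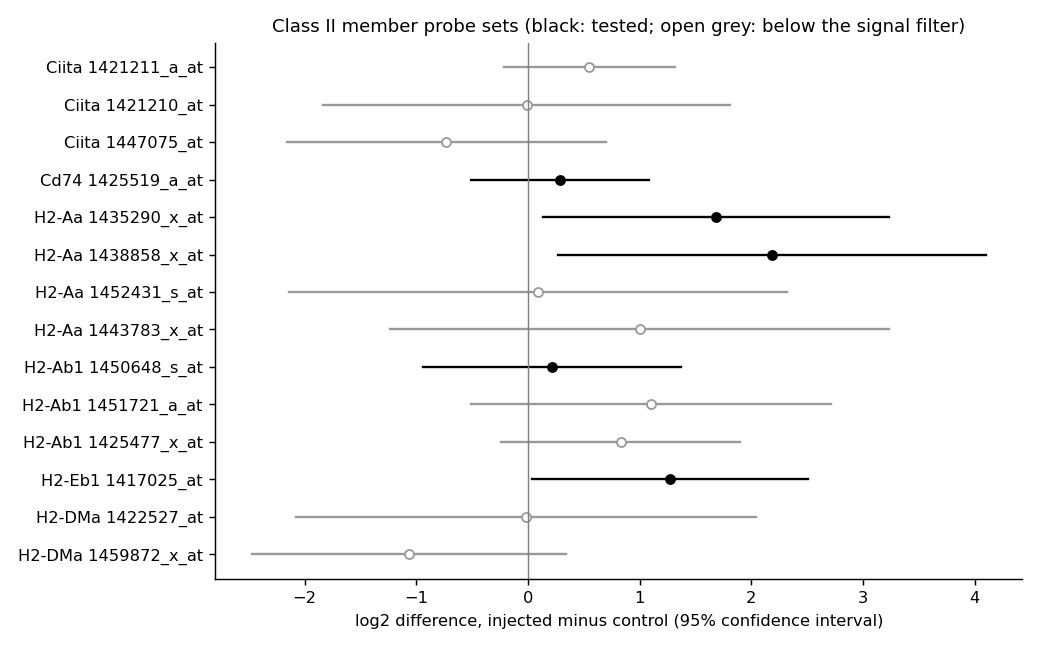
The horizontal axis is the injected minus control difference in log2(intensity + 16) for each member probe set, with its 95% confidence interval. Filled black points are the 5 tested probe sets and open grey points the 9 below the floor; the intervals of both tested H2-Aa probe sets and of H2-Eb1 lie above 0 before adjustment for the number of probe sets tested.

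The members did not vary as one set across the 8 arrays. Each gene taken at its brightest probe set, Cd74 had r = 0.69 with H2-Aa but 0.34 with H2-Eb1, H2-Ab1 had r = 0.44 with H2-Aa, and Ciita had r = 0.29 with H2-Aa. H2-DMa had r = 0.19 with H2-Aa and -0.38 with Cd74. These coefficients describe 8 arrays that share their scaling and the group difference. The mean of the 4 tested member genes, set against the control mean, was 0.01, 1.16, -0.68 and -0.49 on control replicates 1 to 4 and 0.78, 0.34, 1.54 and 0.79 on the injected arrays. Control replicate 2 exceeded 3 of the injected arrays.

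**Figure D3:**
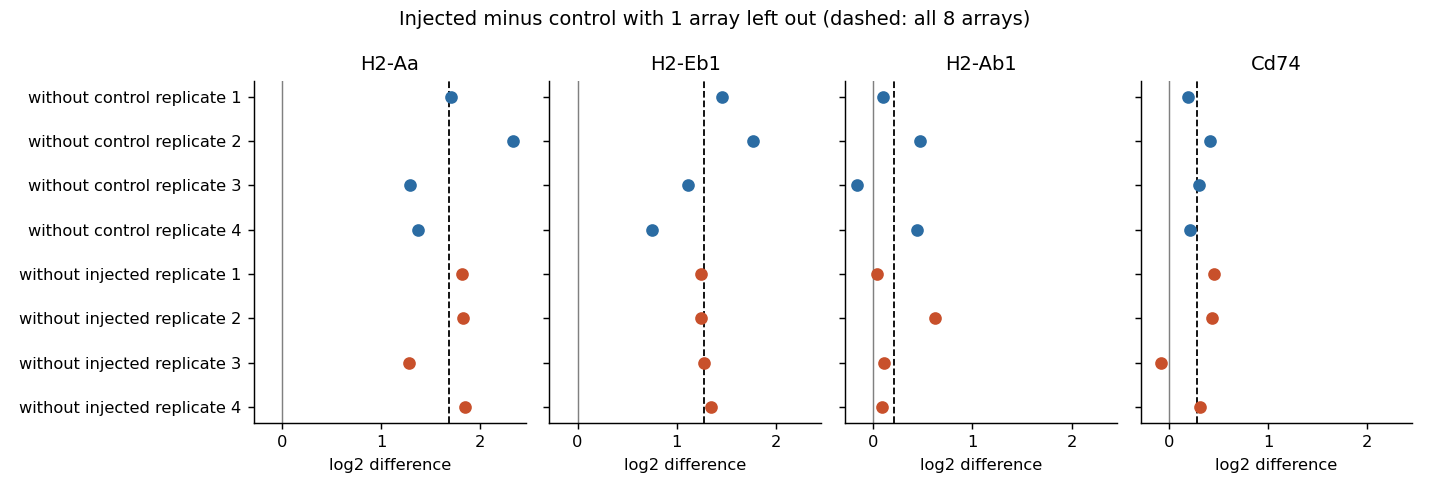
Each point is the injected minus control difference in log2(intensity + 16) with the array named on the vertical axis left out, for the 4 members with a tested probe set, and the dashed line is the value with all 8 arrays. H2-Aa and H2-Eb1 stay above 0 at every point, H2-Ab1 is -0.16 without control replicate 3, and Cd74 is -0.07 without injected replicate 3.

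The accessory class II chains were dim. H2-DMb2, a beta chain of H2-DM, was the only gene of the 5 tested, with a difference of 0.61 ± 0.40 (limma adjusted p = 0.745). H2-Oa and H2-Ob, the chains of the molecule that restrains H2-DM, differed by 1.04 ± 0.66 and 1.01 ± 0.80 below the floor, and H2-Eb2, a second beta chain gene, by 0.64 ± 0.53. H2-Oa and H2-Eb2 are the accessory genes whose promoters held the box pair shown above, while the windows of H2-Ob and H2-DMb2 did not hold its exact letters. H2-DMb1 had no probe set with its symbol alone.

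Over the 6 lists of the pathway outside the members, 33 of 35 genes had a probe set and 27 were tested. None passed the adjusted test in either direction; 3 had an unadjusted p under 0.05 with the injected group higher and 0 with it lower, against 3.66% and 3.33% of all tested probe sets. The median difference of the 27 was 0.19. The 3 were Cd86, Irf1 and Irf8. Among the 7 endosomal processing genes, all tested, the median difference was also 0.19. Of these 7, 4 differences were positive and 3 negative. Ctss, a cathepsin that cleaves Cd74, differed by 0.36 ± 0.17, Ifi30, a thiol reductase, by 0.26 ± 0.25 and Ctsb, a cathepsin, by 0.19 ± 0.19. Marchf1 and Marchf8, ubiquitin ligases that send class II from the surface to degradation, differed by 0.37 ± 0.22 and 0.55 ± 0.38.

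Of the co-stimulatory genes 4 of 5 were tested. Cd86, which signals to T cells through CD28, read 7.11, 9.22, 7.82 and 8.75 in controls and 9.08, 9.07, 10.63 and 9.07 in the injected group. Control replicate 2 was above all but injected replicate 3, as for H2-Aa. The difference was 1.24 ± 0.51 (limma adjusted p = 0.712). Icosl, the ligand of ICOS, differed by -0.15 ± 0.19 and Cd80 by 0.28 ± 0.42.

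Interferon gamma is the classic inducer of Ciita, and 6 of the 9 genes of its axis were tested. Irf8, a transcription factor of myeloid cells, read 9.31, 9.59, 9.75 and 9.40 in controls and 10.94, 10.32, 10.79 and 10.41 in the injected group. Irf1, an early interferon target, read 10.67, 10.66, 10.71 and 11.06 in controls and 11.18, 11.39, 12.10 and 11.46 in the injected group. In both, all injected arrays were above all controls, as in 2.47% of all tested probe sets. Irf8 differed by 1.10 ± 0.21 (limma adjusted p = 0.346) and Irf1 by 0.75 ± 0.23 (adjusted p = 0.602). Jak2 and Jak1, kinases of the receptor, differed by 0.33 ± 0.21 and -0.58 ± 0.38. Ifng itself was below the floor.

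**Figure D4:**
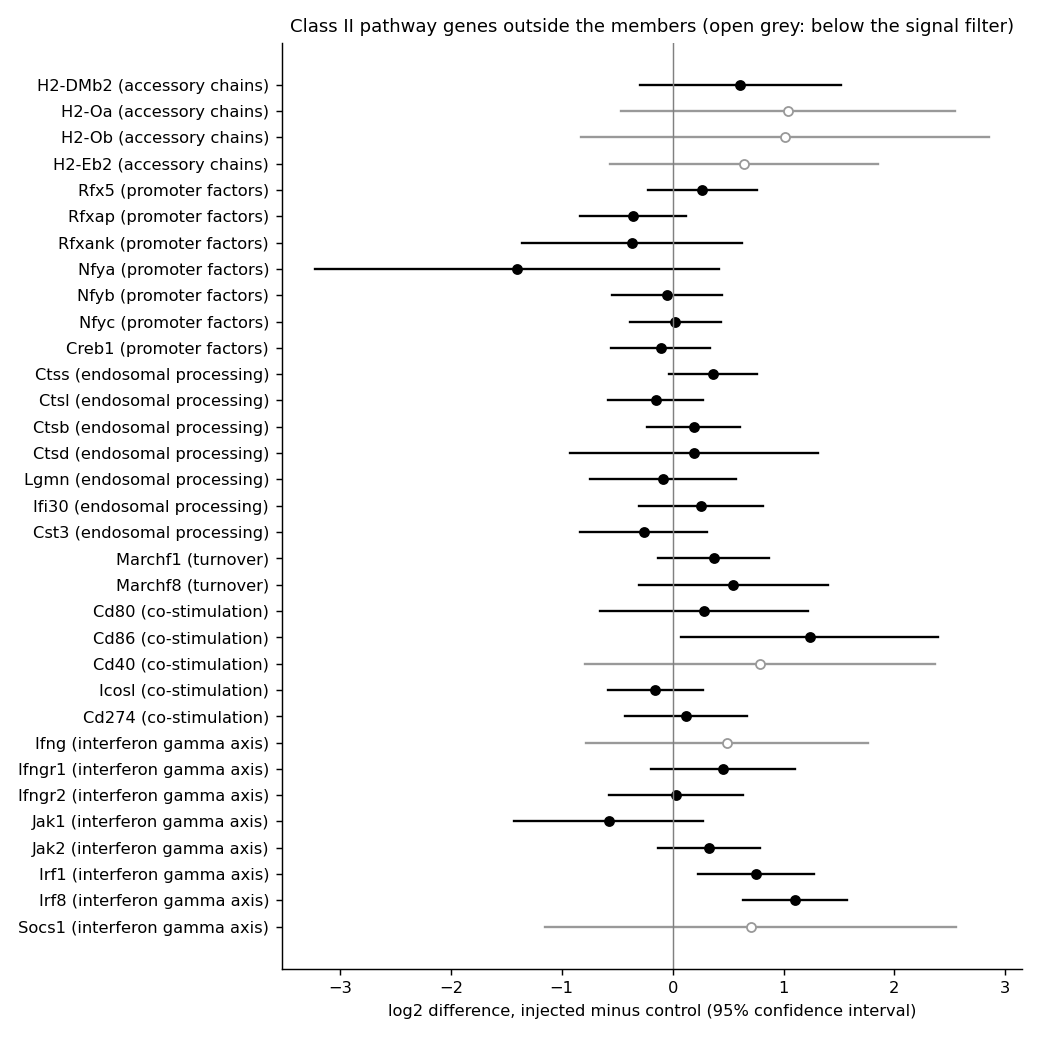
Injected minus control difference in log2(intensity + 16), with its 95% confidence interval, for the 33 genes of the class II pathway lists that have a probe set. Filled points were tested and open grey points lie below the floor; Irf8, Irf1 and Cd86 are the tested genes whose interval excludes 0 before adjustment.

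The class I side had 8 of 9 genes tested and 4 with an unadjusted p under 0.05, all with the injected group higher, against 3.66% of all tested probe sets. Beside Nlrc5, Tap1, a peptide transporter subunit, differed by 1.05 ± 0.23 (limma adjusted p = 0.427) and Psmb9, an immunoproteasome subunit, by 0.92 ± 0.28 (adjusted p = 0.597). The heavy chain H2-K1 differed by 0.83 ± 0.31 (adjusted p = 0.709) and Tapbp by 0.52 ± 0.45. B2m, the light chain of class I, differed by 0.02 ± 0.27 and the heavy chain H2-D1 by 0.07 ± 0.21. The immunoproteasome subunit Psmb8 differed by 0.18 ± 0.84. It read 10.25, 10.40, 11.50 and 6.81 on injected replicates 1 to 4 and at most 9.85 in controls.

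Markers of the cells that can carry class II also varied between arrays, and their part in the member differences was not tested. Over 7 tested of 8 leukocyte genes, the mean against the control mean was -0.17 to 0.28 in controls and 0.30 to 0.66 on injected arrays. Their summed log2 level was 73.4 to 76.6 and 76.7 to 79.3. Of the 7, 3 had limma's unadjusted p under 0.05 with the injected group higher, against 3.66% of all tested probe sets. By sign, 6 of the 7 differences were positive and 1, that of Spi1 (-0.34 ± 0.20), was negative. Ptprc, the leukocyte antigen CD45, read 11.54, 12.63, 11.74 and 12.03 in controls and 12.77 to 13.55 in the injected group, a difference of 1.13 ± 0.28 (limma adjusted p = 0.513). Control replicate 2 was the highest control for Ptprc, as for H2-Aa and H2-Eb1.

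Over the 9 tested of 12 microglia genes, the mean was -0.22 to 0.22 in controls and 0.41 to 0.83 in the injected group. Summed levels were 92.0 to 95.9 and 97.7 to 101. Of the 9, 4 had limma's unadjusted p under 0.05 with the injected group higher, against 3.66% of all tested probe sets. Csf1r, the receptor on which microglia depend, differed by 1.26 ± 0.35 (limma adjusted p = 0.570). C1qc and P2ry13 differed by 0.97 ± 0.20 (adjusted p = 0.393) and 0.73 ± 0.20 (adjusted p = 0.552). Csf1r, C1qc and P2ry13 were among 4 of the 9 genes with all injected arrays above all controls, against 2.47% of all tested probe sets. Tmem119 and P2ry12, markers of resident microglia, differed by -0.25 ± 0.38 and 0.01 ± 0.34. Of the 9 tested microglia genes, 8 differences were positive and 1, that of Tmem119, was negative. Over 7 tested of 10 macrophage and monocyte genes, summed levels were 64.8 to 71.3 in controls and 66.2 to 70.9 in the injected group. Of the 7, 2 had limma's unadjusted p under 0.05 with the injected group higher, against the same 3.66%. Lyz2, a lysozyme of myeloid cells, read 10.63, 12.50, 10.28 and 10.45 in controls and 12.21, 11.91, 12.34 and 11.92 in the injected group. Control replicate 2 stood with the injected arrays for Lyz2, as for H2-Aa, but not for Adgre1, the macrophage antigen F4/80. Adgre1 read 10.53, 10.28, 9.75 and 10.33 in controls and 10.66, 10.85, 11.23 and 11.12 in the injected group, without overlap, a difference of 0.74 ± 0.23 (limma adjusted p = 0.597). Fcgr1, an Fc receptor, and Ms4a7 differed by 0.69 ± 0.35 and 0.61 ± 0.39, while Cd68, Mrc1 and Cd14 differed by -0.08 ± 0.28, -0.02 ± 0.43 and -0.23 ± 0.48.

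Dendritic, B and T cell markers were mostly below the floor. Of the dendritic cell genes 3 of 9 were tested, with summed levels of 25.4 to 27.4 and 26.5 to 28.0; Itgax was not tested. Flt3 differed by 0.62 ± 0.53, Zbtb46 by -0.22 ± 0.30 and Xcr1 by 0.02 ± 0.29, with a median of 0.015. Over the 8 dendritic cell genes with a probe set, tested or not, the median was 0.32. Below the floor, Cd209a differed by 1.77 ± 0.57 and Ccr7 by -0.53 ± 0.25. Of the B cell genes 3 of 7 were tested, with summed levels of 24.9 to 28.6 and 27.5 to 30.1; Cd79b, a part of the B cell receptor, was not tested. The B cell mean, against its control mean, was 0.08, 0.66, -0.59 and -0.14 on control replicates 1 to 4 and 0.29, 0.35, 1.14 and 0.76 on the injected arrays. As for the class II mean, control replicate 2 was the highest control, control replicate 3 the lowest, and injected replicate 3 the highest of all. The same held for the means of the class I and co-stimulation lists, so this order was not particular to B cell genes. Cd22, a B cell lectin, differed by 1.37 ± 0.63 (limma adjusted p = 0.725), Ms4a1 by 0.53 ± 0.47 and Blk by 0.01 ± 0.36. Cd22 read 9.29, 9.46, 6.88 and 8.99 in controls and 9.49, 9.49, 11.41 and 9.71 in the injected group. All its injected arrays were above all controls, but only narrowly above control replicate 2, and control replicate 3 was below the floor. Of the T cell genes 1 of 10, Cd8a, was tested, at 8.90 to 9.87 in controls and 8.64 to 9.42 in the injected group, and Cd3e was not tested. Of the endothelial genes 3 of 7 were tested, with summed levels of 35.1 to 36.6 and 33.7 to 35.8.

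The labelled tissue was checked on 8 retina genes, all tested. The mean was -0.07 to 0.10 on control arrays and -0.96 to -0.07 on injected arrays. Of the 8, 3 had limma's unadjusted p under 0.05 with the injected group lower, against 3.33% of all tested probe sets. Over 4 tested of 5 pigment epithelium genes, a layer next to the retina, the mean was -0.10, 1.51, -0.55 and -0.86 on control replicates 1 to 4 and -1.46 to -0.97 on the injected arrays. Control replicate 2, the control with the highest class II mean, was thus also the array with the most pigment epithelium signal, and Pmel read 14.41 there against 9.10 to 11.26 on the other controls. Of the 4 pigment epithelium genes, 2 had limma's unadjusted p under 0.05 with the injected group lower, against 3.33% of all tested probe sets. They were Rpe65 (-3.02 ± 0.73, limma adjusted p = 0.513) and Mitf (-0.79 ± 0.31, adjusted p = 0.709). In sign, 3 of the 4 differences were negative and 1 was positive. With control replicate 2 and injected replicate 3 both left out, H2-Aa differed by 1.95 and H2-Eb1 by 1.79.

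**Figure D5:**
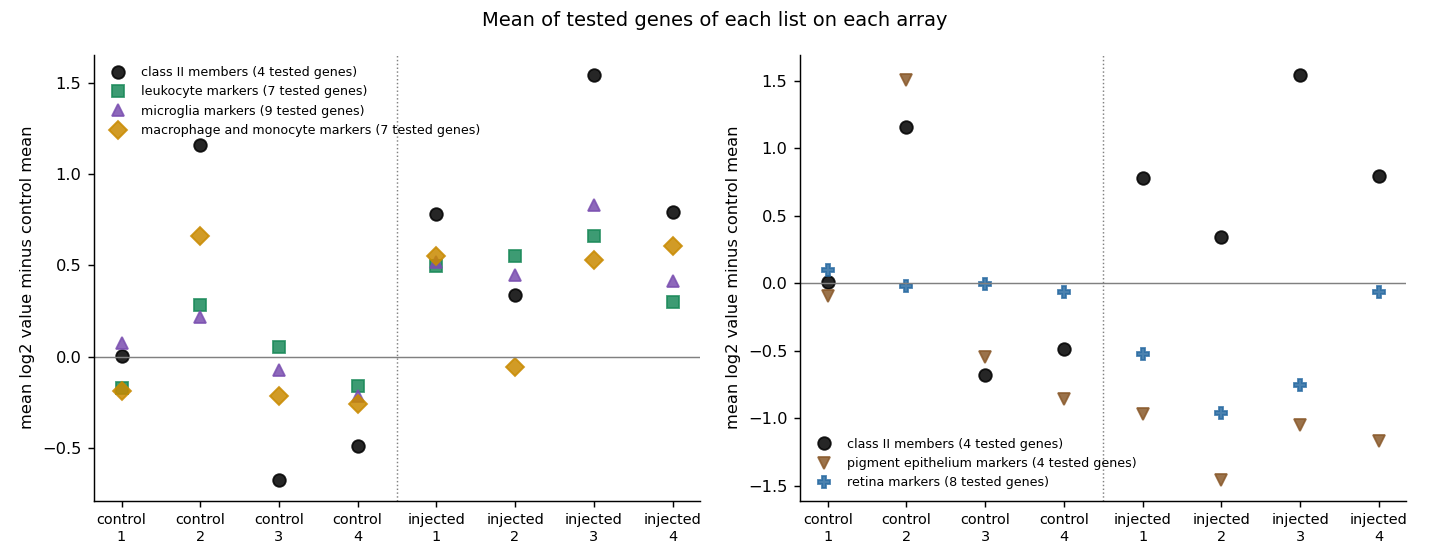
The vertical axis is the mean log2 value of the tested genes of a list on an array minus that list's control mean, and the horizontal axis the 8 arrays, with class II members in black in both panels. Control replicate 2 stands highest of the controls for class II members (1.16), macrophage and monocyte markers (0.66) and pigment epithelium markers (1.51).

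The genes most like the members were sought as the 5 with the highest Pearson r, over the 8 arrays, with the mean of the 4 tested member genes. They were Rela, an NF-kB subunit (r = 0.98), Elof1, a transcription elongation factor (0.96), Tmem176a, a membrane protein (0.96), Syngr2, a vesicle protein (0.96), and Lyz1, a lysozyme (0.96). Without control replicates 3 and 4, the arrays farthest from the median of the member mean, r was 0.90 to 0.98. They are the top of 27022 probe sets on 8 arrays that share the group difference and the scaling, so values of this size are a description. Lyz1 differed by 1.96 ± 0.69 (limma adjusted p = 0.698).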

How the data were processed

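The deposited table held 1 intensity for each of 45101 probe sets on each of 8 arrays (4 control, 4 injected), on a linear scale; the software that made it is not given in the sources used here. From the values, the mean without the 2% highest and lowest was 2500 on every array, a scaling that was checked on the deposited intensities. Some genes of the lists are not reported here. The 64 array control probe sets were left out. Of the rest, 34945 had 1 gene symbol in the platform annotation, 932 several and 9160 none; genes were named from the first kind only.

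Because array medians differed by more than 1.5 times, intensities were quantile normalised, and log2(value + 16) was tested with limma 3.58.1 in R 4.3.3 (lmFit, eBayes, both groups, no covariate, Benjamini-Hochberg, threshold 0.05) on the 27022 probe sets whose mean reached the 40th percentile. Untested probe sets have values from the same model over all 45037, with no adjusted p. A gene of a list is at its brightest probe set. Figures were drawn with matplotlib 3.10.9. On simulated data with 200 changed probe sets among 27022, the injected against control test recovered 16.5% of those changed by 1 on the log2 scale and 64.7% of those changed by 2. The changed probe sets were drawn at random from all tested ones, with independent noise and no effect shared by an array. The shares are therefore not the recovery for a member probe set, which was not simulated. The number of arrays limits the precision.

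Members and lists were chosen with earlier results of these data known. All member probe sets were named, and every gene of the accessory, promoter factor and turnover lists; of other lists up to 3 by smallest p, with Csf1r, Ptprc, Itgax, Flt3, Cd79b and Cd3e, and the 5 genes whose pattern was most like the members. Tmem119, P2ry12, B2m, H2-K1, H2-D1, Tapbp, Psmb8, Jak1, Ms4a7, Cd68, Mrc1, Cd14, Spi1 and H2-Ea were named after their values were seen. Other pseudocounts, filters, scalings, variance models, a replicate block and leaving out arrays were tried.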

Additional observations from a re-analysis of the deposited data

Results flagged for a closer look

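In 88 groups of 4 arrays, for members, pathway genes and marker list means, the array at either end was compared with the other 3 by its gap over the group's range, against Dixon's critical value at 95%. Of these, 7 passed, and chance alone passes about 1 in 20 groups. Among the members, the brightest H2-Aa probe set was highest on injected replicate 3, at 13.69 against 11.89 to 11.97 on the other injected arrays. The dim H2-Aa probe set 1443783_x_at was highest on control replicate 2, at 8.59 against 4.93 to 5.37. H2-Ab1 was lowest on injected replicate 2, at 7.70 against 9.25 to 9.46. Of the promoter factors, Rfx5 was highest on control replicate 3, at 14.66 against 14.27 to 14.33, and Creb1 was lowest on injected replicate 3, at 13.75 against 14.30 to 14.40. The macrophage and monocyte mean, against its control mean, was highest on control replicate 2, at 0.66 against -0.26 to -0.19. On the injected arrays it was lowest on replicate 2, at -0.055 against 0.53 to 0.61.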

How the results depend on the processing

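Over 19 alternatives H2-Aa differed by 1.24 to 2.33 (limma adjusted p 0.452 to 0.889) and H2-Eb1 by 0.75 to 1.79 (0.562 to 0.889), always with the injected group higher. Among the 19, no filter, a trended robust prior, an unmoderated test and the replicate block cannot change a member's difference, only its p-value. Leaving out 1 array gave 1.28 to 2.33 for H2-Aa, 0.75 to 1.77 for H2-Eb1, -0.16 to 0.62 for H2-Ab1 and -0.074 to 0.45 for Cd74; H2-Ab1 was -0.16 without control replicate 3 and Cd74 -0.074 without injected replicate 3. The median difference of the 6 members was 0.32 to 0.76 over 19 alternatives and 0.32 to 0.70 with 1 array left out. Ciita was -0.06 as the mean of its 3 probe sets, and 0.32 to 0.78 with 1 array left out. H2-DMa was positive in 8 of 19 alternatives and negative in 11, from -0.68 to 0.82. Leaving out 1 array called 0 to 29 probe sets higher and 0 to 5 lower, the most without injected replicate 4, and array weights called 7 and 1; the cause was not tested. Median centring moved the median of all tested probe sets to -0.15. To look for pairing, each tested probe set's own group mean was subtracted and the deviations left were correlated between same-numbered samples. These correlations of deviations were 0.08, 0.01, -0.03 and 0.04, so the numbers were not taken as pairs. With the replicate block, H2-Aa stayed at 1.68 with adjusted p = 0.737, H2-Eb1 had 0.728, 0 probe sets were called in either direction and 1814 had an unadjusted p under 0.05, against 1889 without it. The setting without both control replicate 2 and injected replicate 3 came from earlier results of these data. The probe sets' own background was not analysed here, so the floor is the only measure of low signal.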
